A study of Mus musculus with 2 samples.

Results

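The BCL2 family decides whether the outer membrane of the mitochondria stays closed, and it is described here in Flk-1-positive early mesodermal cells derived from mouse embryonic stem cells. The 10 genes chosen were Bax, Bak1, Bbc3, Pmaip1, Bcl2l11, Bid and Bad on the pro-death side and Bcl2, Bcl2l1 and Mcl1 on the pro-survival side. A gene was measured where the array's probe annotation carried its symbol, and the brightest probe by the mean spot median of the 2 arrays stood for it. In all, 9 of the 10 genes had a probe, out of 16444 named genes on the array. Bax had none in the annotation and is not analysed here. Bcl2 had 2 probes and the other 8 measured members had 1 each, so the family is covered by 10 probes.

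The study compared gene-trapped cells, in which AU019823 was disrupted on both alleles by an inserted trap cassette, with revertant cells, which the labels give as nearly wild type for that gene. Both were grown on OP9, a mouse bone marrow stromal line, and sorted for surface Flk-1, the product of Kdr and a mark of early mesoderm. The labels give day 4.5 for both samples, and elsewhere a coculture of 4 days, with total RNA from 300000 gene-trapped and 350000 revertant cells. There was 1 one-colour array per group, so no difference below has a replicate check, a standard error or a test, and the number of arrays limits the precision. The labels also give each sample a code of its own, with no meaning stated, and any difference tied to that code cannot be told apart from genotype.

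In this family the pro-survival proteins BCL2, BCL-XL and MCL1 hold the effectors BAX and BAK in check. BH3-only proteins relay stress: they occupy the groove of the pro-survival proteins or act on the effectors, which then form pores and let cytochrome c escape to start the caspase cascade. Mouse embryos without Mcl1 fail around implantation, and those without Bcl2l1 die later with massive loss of neurons and blood precursors. Pmaip1, Bbc3 and Bax are known transcriptional targets of p53.

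AU019823 had a spot signal of 297 on the gene-trapped array, against 486 on the revertant array, with a log2 difference of -0.39 in normalized signal. The place of its probe relative to the trap is not known, so this value does not check the labels. Kdr had 537 on the gene-trapped array and 1025 on the revertant array, a log2 difference of -0.65, or -2.04 with the scanner's local background subtracted, the lowest of its values over the settings, of which -0.58 was the highest. Signals of the median probe were 38.6 on the gene-trapped array and 47.5 on the revertant array. Above background means more than 2 SD over the mean of the blank spots, a limit of 22.3 on the gene-trapped array and 24.99 on the revertant array. Differences are gene-trapped minus revertant on the log2 scale, after background correction with an offset of 50 and quantile normalization. The offset makes the differences of dim probes smaller than the ratios of their signals.

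All 10 probes of the family were above background on both arrays. Of the 9 measured members, 0 were at least 2-fold higher in gene-trapped cells, where 0.342% of 13753 named genes above background were, and 0 were at least 2-fold lower, where 1.08% were. With 9 members, counts of 0 lie near that background. The member with the largest difference was Pmaip1, at 1.91-fold, just short of 2-fold. Mcl1 came next at 1.28-fold, and the other 7 members lay within 0.2 of 0 on the log2 scale, as did 70.0% of all 13753 genes.

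**Figure D1:**
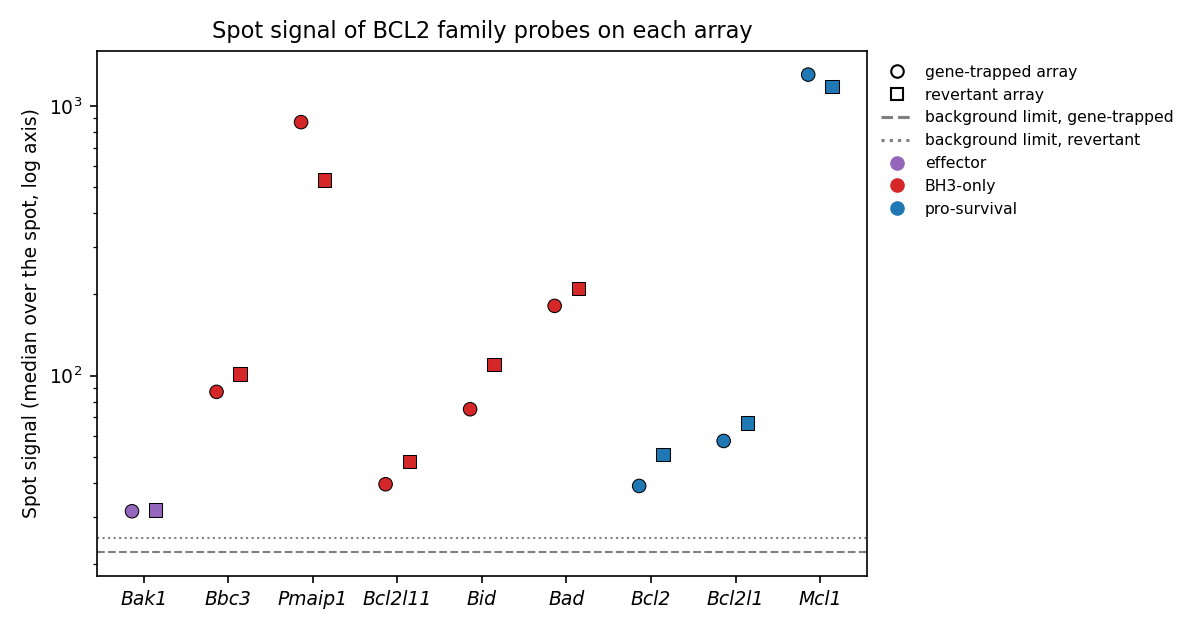
Spot signal (median over the spot, log axis) of each measured member on the gene-trapped array (circles) and the revertant array (squares), with 1 value per point and dashed and dotted lines for each array's background limit. Pmaip1 and Mcl1 had the higher spot signal on the gene-trapped array, and Bak1 lay nearest to the limits. Signals of different probes are not comparable with each other.

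Among the effectors, only Bak1 could be measured. It encodes BAK, which sits in the outer mitochondrial membrane and forms pores once activated. Its spot signal was 31.5 on the gene-trapped array and 31.8 on the revertant array, 1.41 times the background limit of the gene-trapped array and 1.27 times that of the revertant array. The log2 difference in normalized signal was 0.12. In the authors' deposited table, which removes about the blank level and adds no offset, Bak1 was 1.57-fold higher. A signal this close to the limit does not settle the size of a difference, and the value for Bak1 is a description of a dim probe.

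The BH3-only genes differed among themselves. Pmaip1 encodes NOXA, which binds MCL1 in preference to BCL2 and BCL-XL and promotes its degradation. Its spot signal was 870 on the gene-trapped array, against 532 on the revertant array, or 850 against 509 once the blank mean was removed. The gene-trapped array was thus the brighter for this probe, although its median probe was the dimmer. After normalization the log2 signals were 9.94 in gene-trapped and 9.01 in revertant cells, a difference of 0.94. Of the 13753 genes, 59 had a larger positive difference. Genes were split into 10 groups of equal size by brightness. In the group that holds Pmaip1, the central 95% of differences ran from -0.99 to 0.75, and Pmaip1 lay outside that range, the only one of the 9 members to do so. In the authors' table it was 2.17-fold higher, past 2-fold, where 2.01% of 14203 genes with both values were. With the scanner's local background subtracted its log2 difference was 0.49, and 856 of the 13753 genes had a larger one. The local background at its spot was 490 on the gene-trapped array and 313 on the revertant array. By the authors' values 0 members were at least 2-fold lower, where 4.02% of genes were.

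Bbc3 encodes PUMA, which binds every major pro-survival member and is, like Pmaip1, a known p53 target. Its probe gave 87.1 on the gene-trapped array and 102 on the revertant array. The normalized log2 difference was 0.10, below the SD of 0.11 between the log2 ratios of repeated positive control spots, which is a technical spread. Under median scaling, which does not force the arrays to 1 distribution, it was -0.0072. Bbc3 and Pmaip1, although both are p53 targets, thus had log2 differences of 0.10 and 0.94.

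Bcl2l11 encodes BIM, an activator of BAX and BAK. It had spot signals of 39.6 on the gene-trapped array and 48.1 on the revertant array and a log2 difference of 0.01. Bid encodes a protein that caspase-8 cleaves to carry death receptor signals to the mitochondria. It gave 75.1 on the gene-trapped array and 110 on the revertant array and had the lowest log2 difference of the family, -0.14. It stayed below 0 in each of the 8 other settings that could move it, from -0.29 in the authors' table to -0.11 under 75th percentile scaling. That scaling moves the median of all genes to 0.15. Bad encodes a protein that binds BCL2 and BCL-XL when survival kinases do not phosphorylate it. Its signals were 181 on the gene-trapped array and 211 on the revertant array, with a log2 difference of 0.12. The sign for Bad turned under median scaling (-0.037) and with the local background subtracted (-0.091).

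Of the pro-survival genes, Mcl1 stood apart from Bcl2 and Bcl2l1. MCL1 is a short-lived protein that restrains BAK and BIM and is the main partner of NOXA. The spot signal of Mcl1 was 1305 on the gene-trapped array, against 1179 on the revertant array, the only member besides Pmaip1 whose uncorrected signal was higher on the gene-trapped array. The normalized log2 signal was 10.50 in gene-trapped and 10.14 in revertant cells, a difference of 0.36. That is larger than the positive control SD, but 1026 of 13753 genes had a larger difference, and the central 95% of its brightness group ran from -1.06 to 0.74. It was above 0 in each of the 8 other settings that could move it, from 0.22 to 0.53. Pmaip1 exceeded it by 0.57 on the log2 scale.

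Bcl2, the founding member, was measured by 2 dim probes. The brighter one gave 39.0 on the gene-trapped array and 50.9 on the revertant array, and the other gave 27.4 on the gene-trapped array and 32.9 on the revertant array. Their log2 differences were -0.05 and -0.01. Among 137 genes of any brightness with 2 probes above background, the median gap between probes was 0.12 and 90% of gaps lay below 0.46. The gap for Bcl2 was smaller than most. Both its probes are dim and the offset shrinks their differences, so a small gap says little about the value. The other members rest on 1 probe, for which no gap can be given. Bcl2l1, whose long form is BCL-XL, gave 57.3 on the gene-trapped array and 66.7 on the revertant array, with a log2 difference of 0.08. Bcl2l1 makes a pro-survival long form and a pro-death short form by splicing. Which of them its probe reports is not known here.

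**Figure D2:**
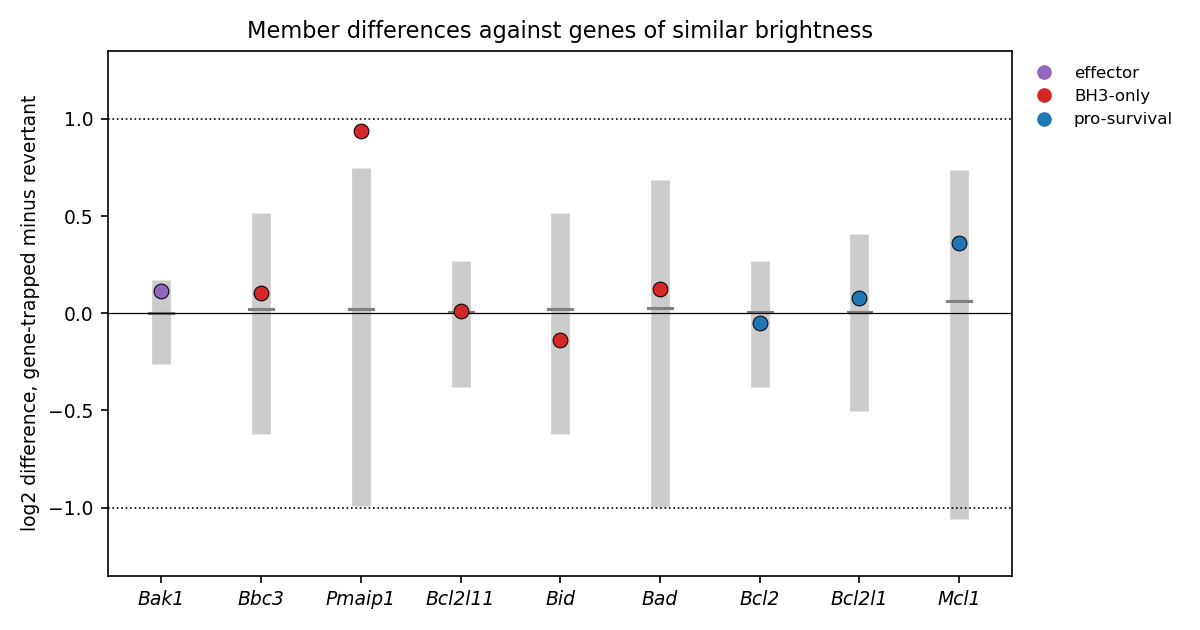
Log2 difference, gene-trapped minus revertant, of each measured member (points, coloured by role), over the central 95% (grey bars) and median (grey ticks) of its brightness group (10 groups of equal size). Dotted lines mark 2-fold. Pmaip1, at 0.94, lies above its bar, which ends at 0.75, and the other 8 members lie inside theirs.

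The pro-death and pro-survival sides were then set against each other. The 6 measured pro-death genes had a median log2 difference of 0.11, with a range from -0.14 to 0.94, and the 3 pro-survival genes had 0.08, with a range from -0.05 to 0.36. All 13753 genes had a median of 0.01. The pro-death median exceeded the pro-survival median by 0.03, and by 0.02 without Pmaip1. That gap had the other sign under median and 75th percentile scaling (-0.020 in both) and with the local background subtracted (-0.15). The ranges overlapped, with the pro-survival range inside the pro-death range. Of the 18 pairs of a pro-death with a pro-survival gene, the widest gap was that of Pmaip1 over Bcl2, at 0.98, and the most negative was that of Bid under Mcl1, at -0.50. Pmaip1 alone lay outside the central 95% of its brightness group, a range worked out only for the main normalization. With the local background subtracted Pmaip1 had 0.49, and 856 of 13753 genes had a larger difference.

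**Figure D3:**
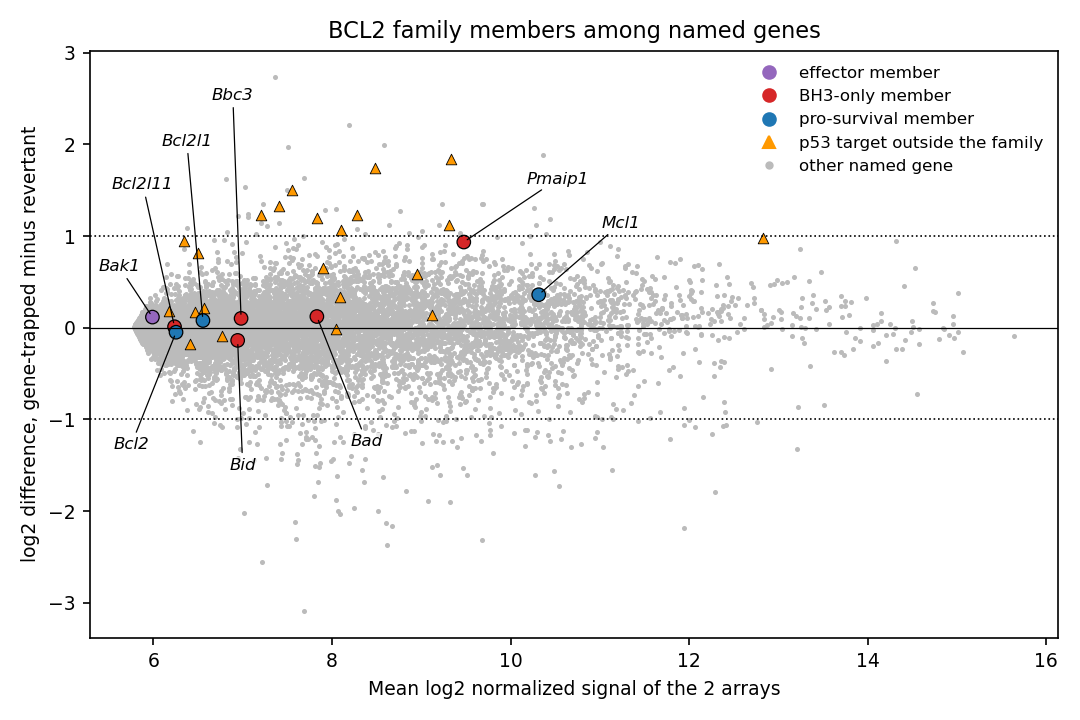
Log2 difference, gene-trapped minus revertant, against the mean log2 normalized signal, for named genes above background on both arrays (grey), with the 9 measured members (circles, coloured by role) and 22 p53 targets outside the family (triangles). Dotted lines mark 2-fold. Pmaip1 at 0.94 lies among the p53 targets, whose median is 0.88, while Bbc3 at 0.10 lies in the middle of the cloud. Genes of the p53 list were known to differ in these samples when it was drawn up, so these positions are no independent evidence.

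Since Pmaip1 and Bbc3 are both p53 targets, p53 targets outside the family were set beside them. Of 23 such genes, 22 had a probe and all 22 were above background on both arrays. In gene-trapped cells 9 of them reached a 2-fold higher signal, where 0.342% of 13753 named genes did. A 2-fold lower signal was reached by 0 of them, where 1.08% did. In all, 19 of the 22 lay above 0, as did 53.3% of the 13753 genes, and the list's median log2 difference was 0.88. Those below 0 were Rrm2b (-0.17), Sesn1 (-0.09) and Gadd45a (-0.02). The cell cycle inhibitor gene Cdkn1a was 2.83-fold higher, Ccng1 had a log2 difference of 1.85 and Phlda3 one of 1.74. Perp, whose product sits in desmosomes and acts in p53-dependent death, had 1.33, and the kinase gene Plk2 1.23. Wig1, the earlier name of Zmat3, an RNA-binding protein gene, also had 1.23. Trp53inp1, which promotes p53 activity, had 1.19, Ei24 1.12 and Gtse1 1.06. Pmaip1 at 0.94 was above that list's median, and Bbc3 at 0.10 was among its lower values, which ran down to -0.17. Genes of this list were known to differ in these samples when it was drawn up, so it gives no independent evidence of direction. With the local background subtracted 3 of the 22 were at least 2-fold higher, and the share of all genes in that setting was not counted. The list's median log2 difference was 0.44 there, where the median of all 13753 genes was -0.01.

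Promoter sequences from RefSeq (GRCm38.p6) were searched for motifs. Each window runs from 250 bases before to 50 after an annotated start, and 9 of the 10 members had at least 1, with 15 windows in all. Pmaip1 is not among them. The p53 half-site, searched by its consensus on both strands, was found in 1 of the 15 windows, that of Bax at AGGCAAGCTT, and in 8.36% of all 32851 windows. The stricter CATGNNNNNNCATG, the cores of 2 adjoining half-sites, was in 0 of the 15 and in 0.712% of all windows. It was present in 1 of the 2 windows of Cdkn1a, shown for comparison with the cores in capitals (chr17:29090916-29090959, plus strand). The GC box GGGCGG, also read as its reverse complement CCGCCC, was in 10 of the 15 windows, from 7 of the 9 genes, and in 35.7% of all windows. Windows of 1 gene can overlap, as for Bbc3, so they are not separate units. TATAAA was in 0 of the 15 and 13.6% of all. Below are the Mcl1 window (chr3:95658471-95658770, plus strand, 1 GC box) and the first of 3 Bbc3 windows (chr7:16309333-16309632, plus strand, 5 GC boxes), with GC boxes in capitals. They are shown because Mcl1 had the largest difference of the pro-survival genes and Bbc3 is a p53 target with a difference near 0. These matches describe letters and are not evidence of binding.
Cdkn1a: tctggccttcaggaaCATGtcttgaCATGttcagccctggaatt
Mcl1: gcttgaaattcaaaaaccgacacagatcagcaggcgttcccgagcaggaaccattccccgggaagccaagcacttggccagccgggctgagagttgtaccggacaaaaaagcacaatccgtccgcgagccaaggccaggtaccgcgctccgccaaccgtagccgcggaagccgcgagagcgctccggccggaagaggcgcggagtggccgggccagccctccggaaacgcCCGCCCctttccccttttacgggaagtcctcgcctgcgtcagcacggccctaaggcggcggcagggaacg
Bbc3: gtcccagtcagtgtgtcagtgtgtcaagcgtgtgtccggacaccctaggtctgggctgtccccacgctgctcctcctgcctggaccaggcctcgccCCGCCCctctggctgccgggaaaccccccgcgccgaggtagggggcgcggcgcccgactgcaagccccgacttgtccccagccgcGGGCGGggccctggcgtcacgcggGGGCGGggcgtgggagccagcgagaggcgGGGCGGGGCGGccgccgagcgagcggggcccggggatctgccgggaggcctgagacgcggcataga

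The wider family was read from a list of 18 relatives, of which 13 had a probe and 11 were above background on both arrays. Of these 11, 0 were at least 2-fold apart in either direction, where 0.342% of 13753 genes were higher and 1.08% lower. Their median log2 difference was 0.02. Bok, a BAX-like effector that does not need BH3-only proteins, had the highest value, 0.35, with spot signals of 140 on the gene-trapped array and 135 on the revertant array. Bnip3l, which encodes the mitophagy receptor NIX and is a known hypoxia target, had the lowest, -0.61, with 648 on the gene-trapped array and 1184 on the revertant array. Bnip1 had -0.09. The pro-survival gene Bcl2l10 was not above background on either array. The BH3-only gene Bmf was above background only on the revertant array, at 27.0 against a limit of 24.99, and its log2 difference was -0.06.

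Of 23 regulators and binding partners of the family, 21 had a probe and all were above background, with a median of 0.04. The gene furthest from 0 was Ddit3, which encodes CHOP, a stress transcription factor known to repress Bcl2 and to induce Bcl2l11 in other cells. It gave 219 on the gene-trapped array and 1094 on the revertant array, a log2 difference of -1.89. It was the 1 member of that list at least 2-fold lower, where 1.08% of 13753 genes were. Bcl2 and Bcl2l11 had -0.05 and 0.01 in the same comparison. The probes of both genes are dim, so the offset shrinks their differences, and a link to Ddit3 was not tested. Mdm2, which encodes the ligase that degrades p53 and is itself a p53 target, had 0.59, and Fbxw7, whose product marks MCL1 for degradation, had 0.36. Trp53 is not analysed here, since no probe carries its symbol.

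Genes acting after the outer membrane opens were mixed: 15 of 18 had a probe, all above background, with a median of 0.04. Of these, 0 were at least 2-fold apart, where 0.342% of 13753 genes were higher and 1.08% lower. The count at least 2-fold lower was 1 under median scaling, with an offset of 16, without background correction and in the authors' table. Cycs, the gene of somatic cytochrome c, had 0.75, with spot signals of 983 on the gene-trapped array and 675 on the revertant array. Apaf1, whose product assembles with cytochrome c into the apoptosome and which is a known p53 target, had 0.73, with 139 on the gene-trapped array and 93.6 on the revertant array. The caspase gene Casp6 had -0.95, with 95.8 on the gene-trapped array and 272 on the revertant array. In the authors' table Apaf1 was past 2-fold higher and Casp6 past 2-fold lower, at log2 differences of 1.12 and -1.34. Under median scaling Casp6 had -1.10. With the local background subtracted the differences were smaller, at 0.10 for Cycs, 0.49 for Apaf1 and -0.25 for Casp6.

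**Figure D4:**
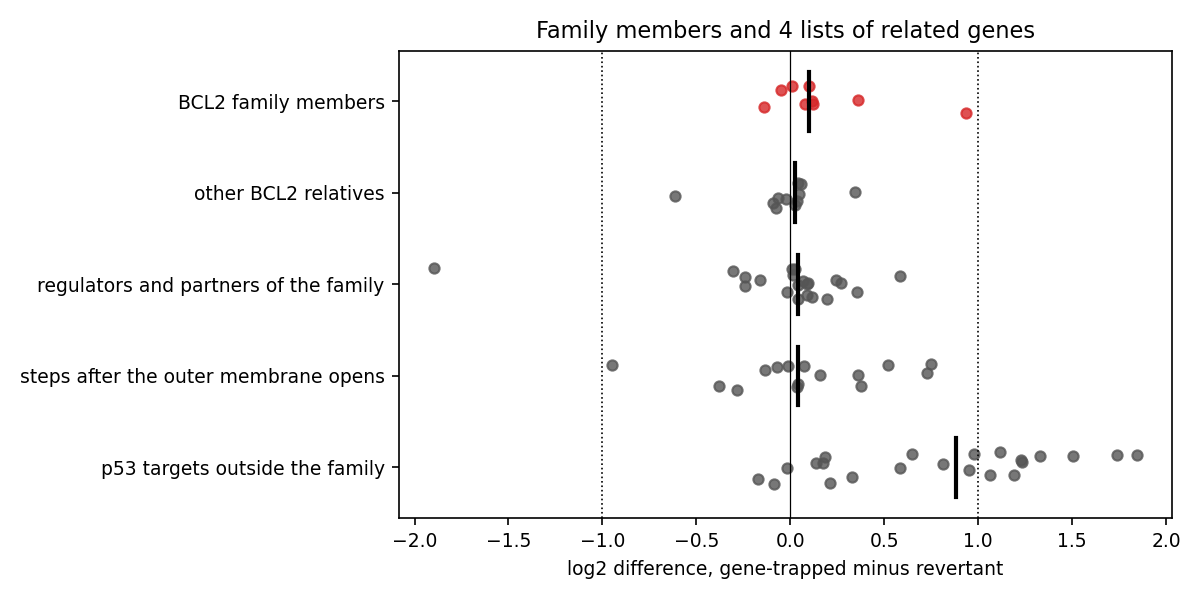
Log2 difference, gene-trapped minus revertant, of the 9 measured BCL2 family members (red) and of 4 lists of related genes (grey), with 1 point per gene above background on both arrays, shifted vertically only for legibility, and a bar at each median. Dotted lines mark 2-fold. The family's median of 0.10 lies near 0, as do 3 of the lists, and the p53 targets have a median of 0.88. Genes of the p53 list were known to differ in these samples when it was drawn up.

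Markers of other cell types were read in the same arrays, as summed spot signals less the blank mean. Early mesoderm genes were above background for 7 of 7, with sums of 4448 on the gene-trapped array and 3261 on the revertant array. Stromal and fibroblast genes were so for 7 of 8, with 1481 on the gene-trapped array and 4396 on the revertant array, and Dcn was not above background on either. Endothelial and blood genes were so for 5 of 7, with 229 on the gene-trapped array and 842 on the revertant array, and Ptprc was not above background on either. Sums on the gene-trapped array were 382 for neuroectoderm (2 of 3 above background), 708 for endoderm (3 of 4), 743 for pluripotent cells (4 of 4) and 98.7 for macrophages (2 of 5). Those on the revertant array were 200 for neuroectoderm, 696 for endoderm, 1119 for pluripotent cells and 122 for macrophages. These sums are not normalized between the arrays and weigh bright probes most. In the stromal sum Acta2 had a spot signal of 1195 on the gene-trapped array and 3603 on the revertant array, and in the pluripotent sum Klf4 had 644 on the gene-trapped array and 994 on the revertant array. In the early mesoderm sum Etv2 had 1739 on the gene-trapped array and 810 on the revertant array, and Mixl1 had 669 and 181. Most of the endoderm sum came from Gata6, with 712 on the gene-trapped array and 695 on the revertant array. Most of the neuroectoderm sum came from Otx2, with 311 on the gene-trapped array and 141 on the revertant array, and Pax6 was not above background on either. These 2 sums thus say little about cell types. Kdr and Pdgfra had normalized log2 differences below 0, at -0.65 and -0.02, and the other 5 early mesoderm genes had values above 0. After normalization the median log2 difference was 0.51 for early mesoderm, -0.41 for stroma, -0.77 for endothelium and blood, 0.83 for neuroectoderm, 0.10 for endoderm, 0.05 for pluripotent cells and 0.07 for macrophages. For pluripotent cells and macrophages the sums and the normalized medians thus had opposite signs. The part of these markers in the differences of Pmaip1 and Mcl1 was not tested. In bulk samples of this kind, fewer cells of a type and less RNA per cell cannot be told apart.

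**Figure D5:**
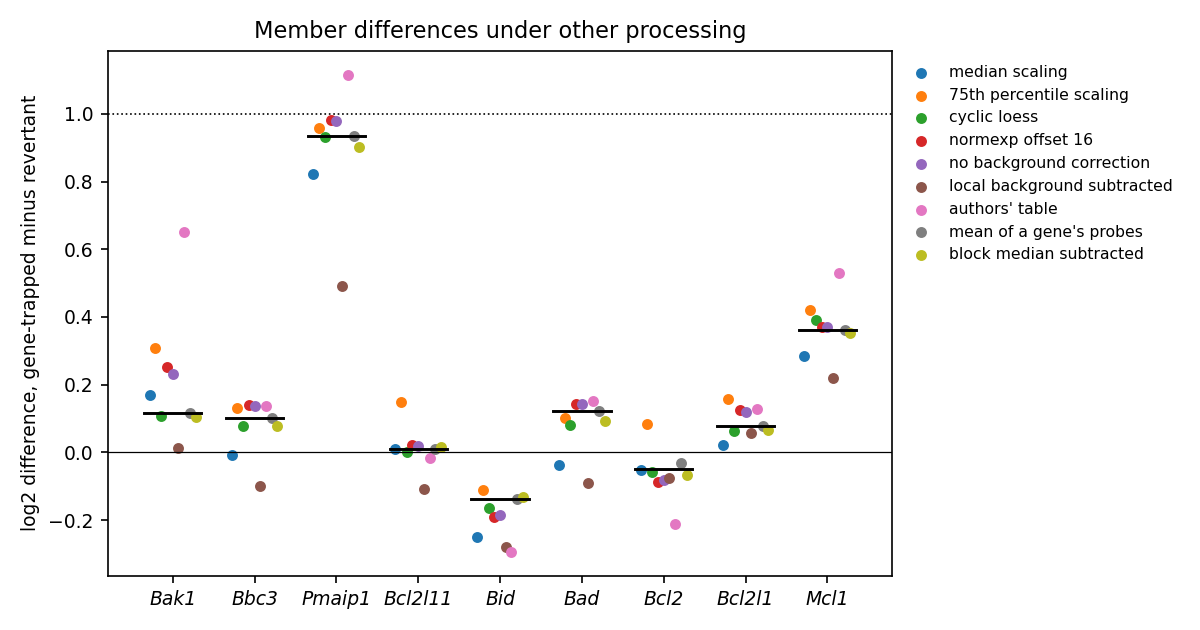
Log2 difference, gene-trapped minus revertant, of each measured member under 9 other processing settings (coloured points), with a black bar at the value reported in the text. The dotted line marks 2-fold. Within each of these settings Pmaip1 is the highest member, up to 1.12 in the authors' deposited table, and its lowest point, 0.49, is with the local background subtracted.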

How the data were processed

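Total RNA of the 2 samples was amplified, coupled to Cy5 and hybridised to TORAY arrays, per the labels' protocols. The deposited scanner files hold linear intensity per spot, a median without background subtraction, with 3 scanner gains joined by least squares per the file headers. The authors' deposited table also holds linear intensity. It is linear in the scanner values (spot signal less about the blank mean, scaled to a median of 25, with higher meaning brighter). No source says why dim probes are empty in it.

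An array holds 27456 spots, 2736 of them blank. Probes with a scanner flag (2) and control spots were left out after the normexp model of limma 3.58.1 (R 4.3.3, offset 50), leaving 23472 probes. These were quantile-normalized and put on the log2 scale, then summarised with Python 3.11.15, numpy 2.4.6, pandas 2.3.3 and matplotlib 3.10.9. Probes above background numbered 19389 (82.6%) on the gene-trapped array and 19704 (83.9%) on the revertant array. The local background column followed spot signal (log2 correlations of 0.96 and 0.97 across probes), so its subtraction is only an alternative. The platform annotation gives 16630 probes 1 symbol and 6842 none. Older symbols of list genes were matched through a RefSeq table of GRCm38.p6.

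Named genes are the members, AU019823 and Kdr, and of each of the 4 lists of related genes those at least 2-fold apart and otherwise the 3 with the largest difference. Relatives named as dim, p53 targets below 0, and markers other than Kdr, were named after their values were seen. Members and lists were chosen with earlier results of these data known. The normalization and the 2-fold count were tested on simulated data in which only bright probes were changed, by more than 2-fold. That test did not cover changes in dim probes, smaller changes or the other steps. Files name no build, so genes have no coordinates beyond the RefSeq windows.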

Additional observations from a re-analysis of the deposited data

How the results depend on the processing

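No paired analysis was possible because a group consists of 1 array only. There were 10 other settings chosen at the start, and subtraction of each block's median and the omission of Pmaip1 were added after the data had been seen. The pro-survival median ran from 0.02 to 0.16 in the 11 other settings and 0 members were at least 2-fold lower in any of them. With the local background subtracted, the pro-death median was -0.096 and its gap over the pro-survival median -0.15, and Pmaip1 had 0.49, with 856 genes above it. By the authors' deposited values 1 member was at least 2-fold higher, Pmaip1. The cause was not tested. Those values have no offset added and are scaled to a median of 25, so they differ from the main values in more than 1 step. The gap between the medians also had the other sign, -0.020, under median and 75th percentile scaling. Of 99 member values in these settings, 26 could not move by construction (the filters, and the mean of probes for members with 1 probe), and of the other 73, 19 moved by more than the positive control SD. Pmaip1 ran from 0.49 to 1.12 and Bak1 from 0.01 to 0.65. Signals near background limit Bak1, Bcl2 and Bcl2l11.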
